A study of Danio rerio with 18 samples.

Results

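Ribose methylation of ribosomal RNA was compared between zebrafish protruding-mouth larvae and 12-somite embryos, at the 98 sites that the authors list. The comparison used 6 libraries of the 18 samples in the series, 3 of protruding-mouth larvae and 3 of 12-somite embryos, chosen by their stage labels. The small subunit rRNA, 18S, holds 35 of the sites, 28S holds 60 and 5.8S holds 3. All 6 libraries were made from whole-cell RNA. The labels give only the stage of each, with no genotype, strain, treatment, age in hours or number of animals, and call the replicates biological. Per the file headers, 12-somite reads were tabulated only on early rRNA, the maternal type, and protruding-mouth reads only on late rRNA, the somatic type, so reference and stage change together. Library 1 of one stage carries the same sequencing barcode as library 1 of the other, and so on for 2 and 3, and each difference below was therefore taken within a barcode.

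Ribose methylation places a methyl group on the 2'-oxygen of a nucleotide. At most such sites in ribosomal RNA the methyltransferase fibrillarin does this, and box C/D small nucleolar RNAs guide it by pairing with the RNA around the target. Zebrafish load the egg with ribosomes made from one set of rRNA genes and later replace them with ribosomes made from another set, and the 2 sets differ in sequence. RiboMeth-seq breaks RNA with alkali and counts where fragments end. The bond next to a methylated ribose resists cleavage, which leaves few read ends there compared with the flanks. The score runs from 0 (as many ends as the flanks, or more) to 1 (no ends), and here it is set against 6 flanking positions on each side. A score between these limits is an average over the rRNA of the animals whose reads were tabulated on the reference of their stage. Methylation of part of the copies in every cell and of all copies in part of the cells therefore cannot be told apart.

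The sequences on which the results turn are shown here, 5' to 3', in lower case. Capitals mark only the sites named with each stretch, and any other listed site within it stays in lower case. Positions count from 1 in the early or late rRNA as the files number them. First comes a stretch of 28S rRNA with 28S-Um3904, 28S-Cm3916 and 28S-Gm3923, where the largest difference between the stages lay, in its early and late forms.
early 28S, positions 3179 to 3210: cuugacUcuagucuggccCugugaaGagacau
late 28S, positions 3067 to 3098: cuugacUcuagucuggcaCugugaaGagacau
The base just before 28S-Cm3916 differs between the references, C3196A in early numbering, and the stretch is otherwise identical.

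Next are the start of 5.8S rRNA, with the site of lowest adjusted p, and the surroundings of single sites that scored higher in protruding-mouth larvae. Early and late rRNA are identical within 6 positions of each.
5.8S-Um8 and 5.8S-Um14, positions 2 to 20: aacucuUagcggUggauca
18S-Gm436, early positions 470 to 494: cgauuccggagaGggagccugagaa
28S-Am1521, early positions 1120 to 1144: gaaagauggugaAcuaugccugggc
28S-Cm2338, early positions 1773 to 1797: gcgggcgcagauCuuggugguagua
18S-Gm1322, early positions 1377 to 1401: ucgauucuguggGugguggugcaug
Listed sites left in lower case here are 18S-Um428 (474), 28S-Gm1509 (1120), 28S-Am1511 (1122), 28S-Am2350 (1797), 18S-Um1326 (1393) and 18S-Gm1328 (1395), by early position. 5.8S-Um8 and 5.8S-Um14 are 6 positions apart, so each is counted among the flanks of the other.

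The libraries held between 4408072 read ends, in 12-somite library 3, and 14995356, in protruding-mouth library 2. The 12-somite library 3 stood apart: 10.4% of its read ends fell on 10 positions, against at most 3.11% in protruding-mouth library 3 and 1.52% or less in the other 4. Its lowest mean over the flanks of a site was 32.25 read ends, and the lowest in any other library was 130.75. Most sites scored high in both stages. The median over sites was 0.933 ± 0.00467 (SD, n = 3) in 12-somite embryos and 0.934 ± 0.0147 (n = 3) in protruding-mouth larvae. The median differed by 0.0160, -0.00971 and -0.00175 in the 3 pairs (exact permutation test over pairs, two-sided, p = 1, where 3 pairs cannot give less than 0.25). A score of at least 0.75 in all 6 libraries was seen at 81 of 98 listed sites and at 1 of 5967 unlisted positions. The list is the authors' own and comes with these same scores, so this contrast is no independent check of it.

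Whether the methylation pattern changes between a somite-stage embryo and a larva, across the change of rRNA type, was asked site by site. No site passed the threshold, and the stages stayed close at most sites. 28S-Cm3916, 18S-Cm462, 18S-Gm436 and 28S-Cm2338 scored higher in larvae by 0.1 or more. 5.8S-Um8, 18S-Um354 and 5.8S-Um14 scored lower by as much, which makes 7 sites (7.14%). The other 91 sites differed by less than 0.1, and 81 of them by less than 0.05.

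In limma, fitted over the 98 sites with the pair as a block, 0 of 98 sites (0%) passed at an adjusted p of 0.05, against 11 (11.2%) at an unadjusted p under 0.05. Of those 11, 8 were higher (8.16% of all sites) and 3 lower (3.06%) in larvae, and the lowest adjusted p was 0.0637, at 5.8S-Um14. edgeR's quasi-likelihood test on the read ends also called 0 sites, with 10 at an unadjusted p under 0.05. The 95% interval of the difference lay within 0.1 on either side of 0 at 69 sites, so a difference of 0.1 or more was outside the interval there. At the other 29 sites the interval reached beyond 0.1. The median half-width was 0.0510, and the median absolute difference was 0.0177.

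**Figure D1:**
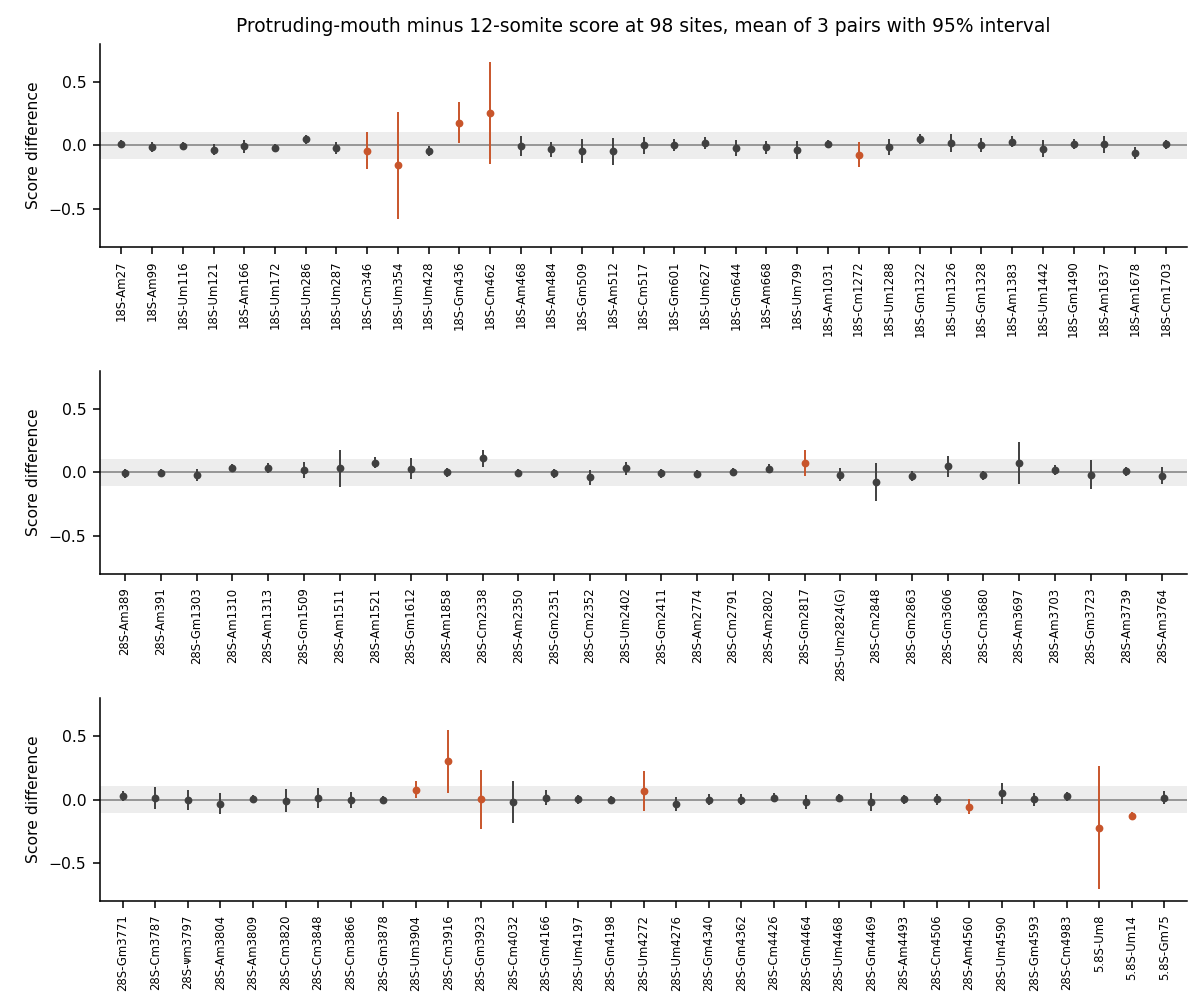
Difference of the score, protruding-mouth minus 12-somite, at each of the 98 sites in the order of the rRNA (18S above, then 28S, then the end of 28S with 5.8S). Points are means of 3 pairs, bars are 95% intervals from limma, the grey band marks differences under 0.1, and red marks the 13 sites with a stage mean under 0.75. Most points lie in the band, and the widest bars are at red sites.

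At 13 sites a stage mean was under 0.75 from both kinds of read ends, and at only 6 of these was it so from 5' ends alone. A single low library can put a site among the 13. Their median absolute difference was 0.0791, against 0.0164 at the other 85 sites. The SD of the 3 pair differences had a median of 0.122 at these 13 sites and of 0.0271 at the others. Unlisted positions had a median absolute difference of 0.0882 and a median SD of the pair differences of 0.143. 12-somite means over them had a median of 0.184, and protruding-mouth means one of 0.143.

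In all 3 pairs, 21 sites scored higher in larvae (21.4%) and 13 lower (13.3%). At unlisted positions these shares were 6.69% and 15.8%. Scores cannot go below 0, so pairs tied at 0 count in neither share, and the low-scoring unlisted positions are not a like background for this count. The libraries of the 2 stages did not overlap at 5 sites with higher larval scores (5.1%) and at 2 with lower ones (2.04%). With 3 libraries per stage, an exact unpaired permutation test cannot give a p under 0.1. A lack of overlap alone therefore does not single out a site. The 5 were 28S-Cm3916, 18S-Gm436, 28S-Am1521, 18S-Gm1322 and 18S-Am27 (27 in both rRNAs, a difference of 0.00912, named after its values were seen), and the 2 were 18S-Um428 and 28S-Um4276. A base 3 positions before 18S-Am27 differs between the references (U24C).

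28S-Cm3916 (early position 3197, late position 3085) had the largest difference. It scored 0.622, 0.528 and 0.138 in 12-somite libraries 1 to 3 and 0.779, 0.757 and 0.663 in protruding-mouth libraries 1 to 3. Every larval library lay above every 12-somite library, and 12-somite library 3 was far below the others. The stage means were 0.429 ± 0.257 (SD, n = 3) and 0.733 ± 0.0616 (n = 3). The difference was 0.304 (SE 0.0851, limma adjusted p 0.336), and its pairs differed by 0.157, 0.229 and 0.525. It was 0.193 without either library 3. The base before this site is one at which the references differ, and this was not separated from stage. Counted from 5' read ends only, the scores were 0.548, 0.152 and 0.415 in embryos and 0.682, 0.774 and 0.734 in larvae, again without overlap, but the flanks held only 6.58 such ends on average in the thinnest library.

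18S-Gm436 (early position 482, late position 446; positions below are given in this order) had partial scores in both stages. In human its guide is the box C/D RNA SNORD100. It scored 0.458, 0.405 and 0.541 in embryos and 0.701, 0.662 and 0.574 in larvae. The groups did not overlap, although the gap was narrow in the pair of libraries 3, at 0.0337. Stage means were 0.468 ± 0.0685 (SD, n = 3) and 0.646 ± 0.0650 (n = 3), a difference of 0.178 (SE 0.0551, limma adjusted p 0.336). From 5' read ends only it was 0.152 (SE 0.0612) (limma adjusted p 0.603). There libraries 3 scored 0.510 and 0.509 and the groups overlapped. Early and late rRNA do not differ around this site.

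28S-Cm2338 (1785 and 1770) scored 0.912, 0.787 and 0.805 in embryos and 0.984, 0.947 and 0.905 in larvae. All pairs went up, by 0.0728 to 0.160, and embryo library 1 overlapped larval library 3. The difference was 0.111 (SE 0.0219, limma adjusted p 0.336). The 5' read ends alone gave a difference of only 0.0112, from 0.981 ± 0.0217 (SD, n = 3) to 0.992 ± 0.00452 (n = 3). From 3' ends only the scores were 0.881, 0.739 and 0.783 in embryos and 0.975, 0.938 and 0.882 in larvae.

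28S-Am1521 (1132 and 1121) was higher in larvae by either kind of read end. Its scores were 0.905, 0.834 and 0.912 in embryos and 0.963, 0.943 and 0.980 in larvae. The groups were apart, with a difference of 0.0785 (SE 0.0159, limma adjusted p 0.336). With 5' read ends only, the scores were 0.909, 0.856 and 0.849 against 0.947, 0.956 and 0.948, and the difference was 0.0793 (SE 0.0178, limma adjusted p 0.518). No base differs between the references within 6 positions. Together with 18S-Um286 and 5.8S-Um14 it was one of 3 sites, of the 93 fitted in both readings, with an unadjusted p under 0.05 in each. The 5' ends are part of both readings, so the second is no independent check. At 18S-Um286 and 5.8S-Um14 the 3' ends were too few to be fitted alone.

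18S-Um286 (333 and 296), next to 18S-Um287, scored 0.931, 0.903 and 0.870 in embryos and 0.966, 0.950 and 0.926 in larvae. The pairs differed evenly, by 0.0346, 0.0477 and 0.0565, and the groups overlapped. Its mean difference was 0.0463 (SE 0.0117, limma adjusted p 0.336), and the references differ at 2 positions within 6 of it. 18S-Gm1322 (1389 and 1344) went from 0.852 ± 0.0394 (SD, n = 3) to 0.901 ± 0.0255 (n = 3), without overlap. The difference was 0.0493 (SE 0.0143, limma adjusted p 0.336), and 0.131 with 5' read ends only. It was 0.0281 with 3' read ends only and 0.0194 with 2 unweighted flanking positions on each side. The listed sites 18S-Um1326 and 18S-Gm1328 lie within the flanks of 18S-Gm1322. 28S-Um4590 (3890 and 3739) differed by 0.0502 (limma adjusted p 0.610), mostly through pair 1 with 0.122, and by 0.0145 without it. Also, a base 4 positions before it differs between the references (G3886A), and the listed site 28S-Gm4593 lies within its flanks.

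**Figure D2:**
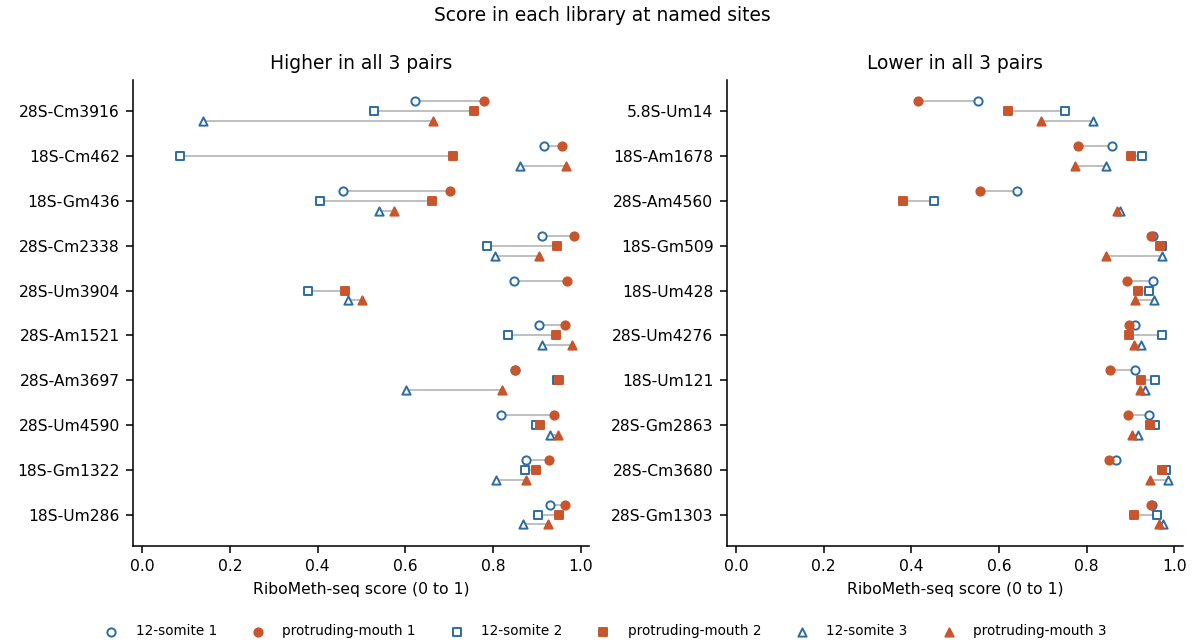
Score in each library at the 10 sites with the largest differences among those higher in all 3 pairs (left) and lower in all 3 pairs (right). The horizontal axis is the RiboMeth-seq score from 0 to 1, open blue symbols are 12-somite and filled red symbols protruding-mouth libraries, and grey lines join libraries that share a barcode. The lines of 5.8S-Um14 are nearly equal in length, whereas 28S-Cm3916 and 18S-Cm462 each have 1 long line.

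Among the lower scores, 5.8S-Um14 (position 14 in both rRNAs) had the lowest adjusted p of all sites. In human its guide is SNORD71. It scored 0.552, 0.75 and 0.814 in embryos and 0.416, 0.621 and 0.695 in larvae. The ranges of the stages overlap, because the libraries of each stage spread widely and in the same order of barcodes. Within barcodes the differences were -0.137, -0.129 and -0.119. Their mean was -0.128 (SE 0.0114, limma adjusted p 0.0637), with a 95% interval from -0.161 to -0.0950. Without the pairing, the SD within a stage was 0.136 and 0.145 (n = 3 each) and the limma adjusted p was 0.942. Read ends from 5' alone gave -0.142 (SE 0.0160, limma adjusted p 0.221). These are nearly the same data: in the thinnest library the flanks held on average 637.25 such ends of 683.75 in all. Over the 93 sites fitted on 5' ends, scores did not deviate alike within every barcode (correlations of -0.106, 0.423 and -0.221). The low adjusted p thus rests on a pairing that 5' ends did not bear out throughout. The adjusted p ran from 0.0347, when all 14 libraries were fitted with barcode, to 0.942 over the alternatives tried. It also rose with the pairing kept. It was 0.448 in limma on the logit scale, 0.587 in edgeR's quasi-likelihood test and 0.598 in limma with a trended, robust variance model.

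5.8S-Um8 had a lower larval mean too, but its pairs disagreed. It scored 0.904, 0.851 and 0.568 in embryos and 0.480, 0.388 and 0.791 in larvae. Libraries 1 and 2 were lower in larvae, with pair differences of -0.424 and -0.463, and library 3 was higher, with 0.223. The mean of -0.221 (SE 0.167, limma adjusted p 0.680) had an interval from -0.708 to 0.265, and ran from -0.444 without libraries 3 to -0.1003 without libraries 2. 5.8S-Gm75, the third site of this RNA, with SNORD96 as its guide in human, scored 0.885 ± 0.0402 (SD, n = 3) and 0.902 ± 0.0690 (n = 3). Its difference was 0.0163 (SE 0.0165, limma adjusted p 0.737), from 0.00430 without libraries 1 to 0.0324 without libraries 2.

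18S-Um428 and 28S-Um4276 were the 2 sites (2.04%) at which all larval libraries lay below all embryo libraries, and neither passed the test. 18S-Um428 (474 and 438) scored 0.952, 0.943 and 0.954 in embryos and 0.892, 0.918 and 0.911 in larvae. The mean difference was -0.0427 (SE 0.0131, limma adjusted p 0.336). The same held with 5' read ends only, with a difference of -0.0368 (SE 0.0213, limma adjusted p 0.675). 28S-Um4276 (3574 and 3424), whose neighbour 28S-Um4272 lies within its flanks, went from 0.936 ± 0.0314 (SD, n = 3) to 0.901 ± 0.00713 (n = 3), with a limma adjusted p of 0.598. Its difference was -0.0354, and -0.0158 without library 2 of either stage.

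18S-Am1678 (1743 and 1697) scored 0.857, 0.928 and 0.845 in embryos and 0.782, 0.903 and 0.773 in larvae, a difference of -0.0577 (SE 0.0163, limma adjusted p 0.336). It was only -0.00918 with 5' read ends alone. 28S-Am4560 (3860 and 3709) kept its order of libraries in both stages, 0.641, 0.451 and 0.877 against 0.556, 0.382 and 0.869. Its difference was -0.0543 (SE 0.0205, limma adjusted p 0.473), and the base 4 positions after it differs between the references (C3864U). From 5' read ends only the difference was -0.00797, and from 3' ends -0.187. The other sites that were lower in all 3 pairs and are named in the plot of values, 18S-Gm509, 18S-Um121, 28S-Gm2863, 28S-Cm3680 and 28S-Gm1303, differed by -0.0466 to -0.0217. A base 3 positions before 18S-Gm509 differs between the references (A552G). The listed site 18S-Am512 lies within the flanks of 18S-Gm509, and 18S-Um116 within those of 18S-Um121. At 18S-Gm509 the difference came almost wholly from library 3, whose pair differed by -0.129, and it was -0.00527 without it. Leaving out 1 pair also changed the difference by more than 1.5 times at 18S-Um121 (-0.0217 without libraries 1), 28S-Gm2863 (-0.0133 without libraries 1), 28S-Cm3680 (-0.0131 without libraries 3) and 28S-Gm1303 (-0.00625 without libraries 2).

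At several of the sites with a stage mean under 0.75, the pairs went in different directions. 18S-Um354 (400 and 364), guided by SNORD90 in human, had the lowest mean of all sites in both stages, 0.396 ± 0.123 (SD, n = 3) and 0.239 ± 0.279 (n = 3). It scored 0.331, 0.319 and 0.538 in embryos and 0, 0.546 and 0.170 in larvae. The pairs differed by -0.331, 0.227 and -0.369, which gave -0.158 (SE 0.144, limma adjusted p 0.717). Without the pair of libraries 2 the difference was -0.350 with a limma adjusted p of 0.0206, the only site called there, and it was -0.0709 without libraries 1 and -0.0519 without libraries 3. In 5' read ends only its mean was 0.0428 higher in larvae, with scores from 0 to 0.713 over the 6 libraries.

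18S-Cm1272 (1339 and 1294), guided by SNORD66 in human, scored 0.544, 0.511 and 0.824 in embryos and 0.469, 0.515 and 0.676 in larvae. The difference was -0.0728 (SE 0.0348, limma adjusted p 0.598), and the middle pair was almost equal. It was -0.112 without libraries 2 and -0.0349 without libraries 3. 28S-Gm2817 (2265 and 2249) had 0.722, 0.697 and 0.784 in embryos against 0.812, 0.842 and 0.771 in larvae, so that 2 of 3 pairs were higher in larvae. It differed by 0.0741 (SE 0.0360, limma adjusted p 0.598), by 0.0390 without libraries 2 and by 0.117 without libraries 3.

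18S-Cm346 (392 and 356) read differently from the 2 kinds of ends. With both, it scored 0.789, 0.546 and 0.550 in embryos and 0.666, 0.632 and 0.458 in larvae, so that pairs 1 and 3 were lower in larvae and pair 2 higher. The difference was -0.0429 (SE 0.0499, limma adjusted p 0.769). It was -0.00278 without libraries 1, -0.107 without libraries 2 (limma adjusted p 0.387) and -0.0186 without libraries 3. From 5' read ends only, embryos scored 0.972, 0.959 and 0.936 and larvae 0.723, 0.926 and 0.657. There every larval library was below every embryo library, with a difference of -0.187 (SE 0.0618, limma adjusted p 0.518).

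Libraries were then compared by barcode. Deviations of libraries from their stage mean were set side by side across the 98 sites. For libraries that share a barcode the correlation was 0.588, 0.571 and 0.450, and for the 6 pairs of different barcodes it ran from -0.428 to -0.0656. The deviations of the 3 libraries of a stage sum to 0 at each site, so positive values for the same barcode push the others below 0, and the contrast between them is partly set by this. The sites share libraries and depth and are no replicates, so these values are a description. With 3' read ends only the same-barcode values were 0.650, 0.672 and 0.441 over 92 sites. With 5' read ends only they were -0.106, 0.423 and -0.221 over 93 sites, and those of different barcodes ran from -0.622 to 0.462, so that the highest value there was between different barcodes, 12-somite library 1 and protruding-mouth library 3. The fit on 5' ends was paired by number all the same. Without the pairing it called 0 sites, with 8 at an unadjusted p under 0.05.

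**Figure D3:**
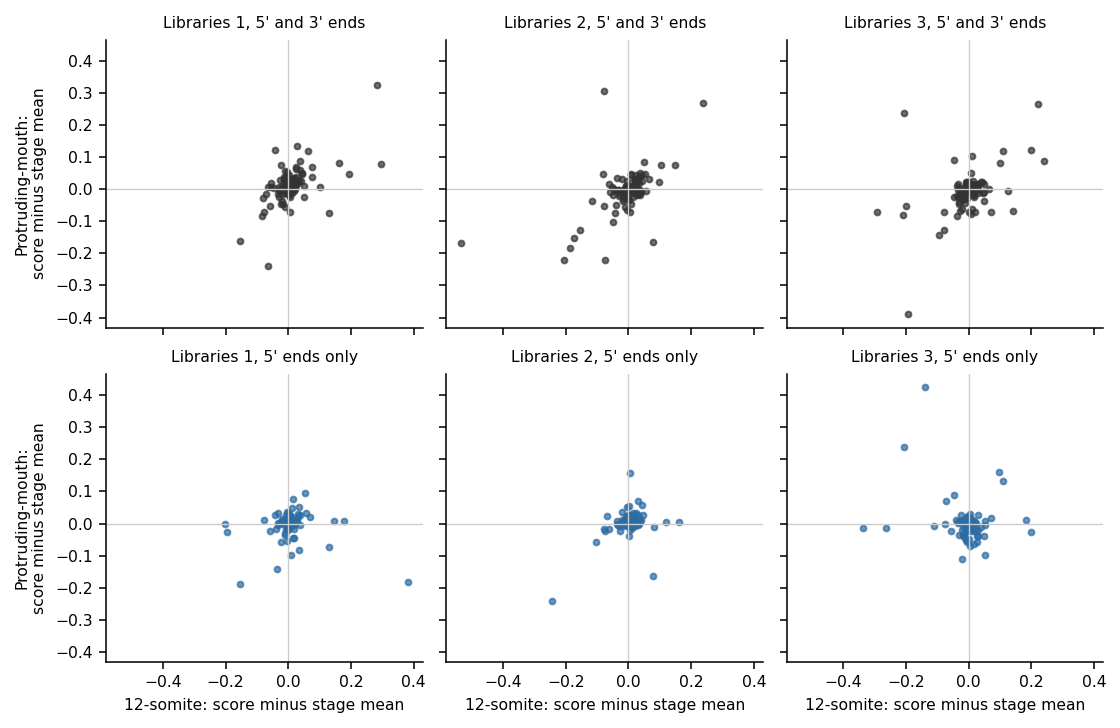
Deviation of a library's score from its stage mean, 12-somite on the horizontal and protruding-mouth on the vertical axis, for the 3 pairs of same-numbered libraries. Each point is a site, with both kinds of read ends in the upper row (98 sites) and 5' read ends only in the lower row (93 sites). The upper clouds tilt upward, with correlations of 0.450 to 0.588.

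18S-Cm462 (508 and 472), guided by SNORD14 in human, had 1 barcode far below the others. It scored 0.917, 0.0868 and 0.861 in embryos and 0.957, 0.709 and 0.966 in larvae. Library 2 was the low one in both stages, and it carried the mean difference of 0.256 (SE 0.138, limma adjusted p 0.598), which was 0.0725 without either library 2. From 5' read ends only, all 6 libraries scored 0.989 or more, with as few as 0.833 such ends per flanking position. From 3' ends, libraries 2 scored 0.0825 and 0.704 and the other 4 at least 0.861. The listed site 18S-Am468 lies within the flanks of 18S-Cm462.

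28S-Um3904 (3185 and 3073) had 2 low barcodes. It scored 0.848, 0.377 and 0.470 in embryos and 0.970, 0.463 and 0.501 in larvae. Libraries 2 and 3 were low in both stages, and each pair was higher in larvae, with a mean of 0.0791 (SE 0.0225, limma adjusted p 0.336). All 6 libraries scored between 0.906 and 0.991 from 5' read ends, with a difference of 0.0174. From 3' ends, libraries 2 and 3 scored between 0 and 0.339.

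28S-Gm3923 (3204 and 3092), in the same stretch, had 0.597, 0.876 and 0.445 in embryos and 0.764, 0.912 and 0.252 in larvae. Library 2 was the high one and library 3 the low one in both stages. The difference was 0.00347 (SE 0.0793, limma adjusted p 0.989). 28S-Um4272 (3570 and 3420) scored between 0.497 and 0.855 from both kinds of ends and between 0.976 and 0.997 from 5' ends, and 28S-Am3697 (2978 and 2866) between 0.601 and 0.950 against 0.973 and 0.987. At neither did the stage difference pass (limma adjusted p 0.680 for each). It was 0.0703 at 28S-Um4272, from 0.0174 without libraries 1 to 0.137 without libraries 3. At 28S-Am3697 it was 0.0747, and 0.00183 without libraries 3. The listed site 28S-Am3703 lies within the flanks of 28S-Am3697.

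The authors corrected some stage means for the barcode, per the file headers. Of the means in the authors' deposited table, 10 at 7 sites differ from the mean of the library scores, and all 10 could be rebuilt by putting the score from 5' read ends in place of 12 library values. At 3 of the 7 sites both stages were corrected, and at the other 4 only one was. The site 28S-Gm3923 goes, in the authors' deposited table, from 0.639 in embryos, uncorrected, to 0.930 in larvae, corrected. The difference of 0.291 in the authors' deposited table compares with 0.00347 from uncorrected scores in both stages and -0.00501 from 5' read ends in both. The last value is thin, because this site was among the 5 left out of the fit on 5' ends for too few such ends. For 28S-Um3904 the authors' deposited table has 0.759 and 0.958, where 1 embryo library and 2 larval libraries were replaced. At 28S-Cm4032 (3273 and 3167) the authors' deposited table has 0.887 and 0.984 with only larvae corrected, while the uncorrected difference was -0.0199 and that from 5' ends 0.0155. The correction also went the other way. At 28S-Am1511 (1122 and 1111) only embryos were corrected, from 0.861 to 0.977, and the difference in the authors' deposited table is -0.0842. For 18S-Cm462, corrected in both stages, it is 0.0483, against 0.256 from uncorrected scores. With the corrected values limma called 0 of 98 sites.

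Scores from 5' read ends only gave a second reading of the whole comparison. These ends are also counted in the scores from both kinds, so like directions are partly set by shared reads. A mean of at least 10 such ends over the flanks in every library was met by 93 sites, and 0 of them passed (0%), with 7 (7.53%) at an unadjusted p under 0.05. The difference had the same sign in both readings at 69 of 98 sites and opposite signs at 29. All 3 pairs went the same way in both readings at 18 of 98 sites, 11 higher and 7 lower in larvae. The counts over 98 sites include the 5 with too few 5' ends for the fit. The spread within stages was smaller at 59 of 98 sites, and its median was 0.0226 against 0.0330 with both kinds of ends. Scores from 5' ends also lay nearer to the upper limit of 1, which leaves less room for spread. Their library medians were 0.956 to 0.968, against 0.926 to 0.951 with both kinds. By 5' ends 6 sites had a stage mean under 0.75 in place of 13, and all 6 were among the 13. 28S-Am389 and 28S-Am391, which lie 2 positions apart, differed by 0.107 and 0.155 in 5' ends and by -0.00634 and -0.00436 with both. Their 5' scores in 12-somite library 3 were 0.574 and 0.444, and those of the other 5 libraries were 0.922 or more.

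**Figure D4:**
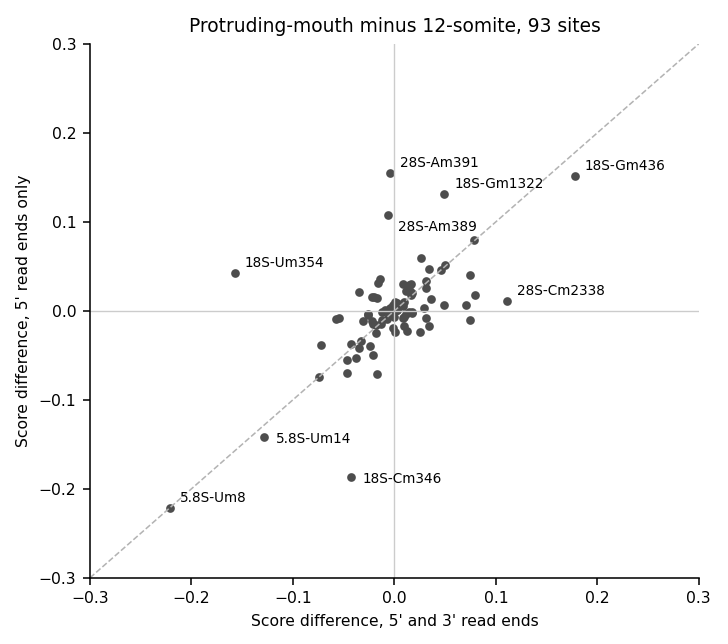
Score difference, protruding-mouth minus 12-somite, from both kinds of read ends (horizontal) and from 5' read ends only (vertical), for the 93 sites with enough 5' ends. Each point is the mean of 3 pairs at a site, the dashed line marks equality, and sites that differ by 0.1 or more in either reading are named. 5.8S-Um14 and 18S-Gm436 lie near the line, and 28S-Cm2338, 18S-Um354 and 18S-Cm346 do not.

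By rRNA, 0 of 35 sites were called in 18S, 0 of 60 in 28S and 0 of 3 in 5.8S. In 18S, 14 sites scored higher and 21 lower in larvae, with a median difference of -0.00886. In 28S, 35 were higher and 25 lower, with a median of 0.00187, against 0.000502 over all 98 sites. Within 18S the sites numbered below 600 by the authors, in the 5' part, had 4 higher and 14 lower, with a median of -0.0151, and those from 600 on had 10 higher and 7 lower. The 10 sites of 28S below 2000 had 7 higher and 3 lower, with a median of 0.0239. By nucleotide, the median absolute difference was 0.0145 at the 29 A, 0.0199 at the 19 C, 0.0164 at the 28 G and 0.0337 at the 22 U sites, against 0.0177 over all. These groups were not tested against each other.

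Early and late rRNA are identical within 6 positions at 83 sites and differ at 15. Of the 15, 1 differed by at least 0.1 between the stages, 28S-Cm3916, and of the 83, 6 did. The median absolute difference was 0.0256 at the 15 and 0.0174 at the 83. Both groups had 0 called sites.

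The A-loop of the large subunit, which binds the end of the aminoacyl-tRNA, carries an adjacent pair, 28S-Um4468 and 28S-Gm4469 (3766 and 3767 in early rRNA). Its sequence is the same in both references. The listed site 28S-Gm4464 (3762 in early rRNA) is left in lower case below and lies within the flanks of both.
A-loop, early positions 3760 to 3773: uuggauUGuucacc
28S-Um4468 scored 0.957 ± 0.00901 (SD, n = 3) in embryos and 0.968 ± 0.00196 (n = 3) in larvae, and the interval of its difference ran from -0.0214 to 0.0437 (limma adjusted p 0.737). 28S-Gm4469 scored 0.946 ± 0.0131 (n = 3) and 0.929 ± 0.0549 (n = 3), with an interval from -0.0892 to 0.0559 (limma adjusted p 0.806). A change of 0.1 lay outside both intervals.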

How the data were processed

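RNA was fragmented by alkali, a short size fraction was sequenced, and the submitters' processing notes name cutadapt 2.0 and Bowtie2 2.3.4.1 with no role. The deposited tables hold, per the file headers, counts by rRNA position, one of 5' read ends and one that adds the 3' ends, and the deposited RiboMeth-seq score, a fraction from 0 to 1. The authors' mean per stage and site, partly corrected for barcode, is held as a score in a separate deposited table. Of the 6 columns of each library, 46 columns over the 14 libraries were not used.

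Recomputing the score from the counts (6 flanking positions on each side, weights 1.0 to 0.5) gave the deposited values to within 5e-13. Site differences were tested on deposited scores with limma 3.58.1 in R 4.3.3 (stage and replicate number, Benjamini-Hochberg adjustment over 98 sites, threshold 0.05, at least 10 read ends on average over the flanks in every library). Same-numbered libraries share a barcode per the file headers, so the numbers were used as pairs. The correlations of their deviations, taken from the same scores that were tested, were 0.588, 0.571 and 0.450. From 5' ends alone these were -0.106, 0.423 and -0.221. edgeR 4.0.16 on the read-end counts, 5' ends only, other flanks, scales and filters, and leaving out each library were alternatives. PCR copies cannot be told from separate molecules.

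Named are up to 10 higher and 10 lower sites with the largest differences among those with all 3 pairs in one direction, sites with a stage mean under 0.75, the 5.8S sites, the A-loop pair, and sites whose direction turns in 5' ends with a difference over 0.1. A few others are named beside a count or the authors' corrections. The sites and lists were chosen with earlier results of these data known. Early and late positions are those of the deposited tables.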

Additional observations from a re-analysis of the deposited data

Results flagged for a closer look

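One position outside the authors' list scored high in every library. It is a U at position 1315 of early 18S rRNA and 1270 of late 18S rRNA. Its lowest score over the 6 libraries was 0.801, and its stage means were 0.872 ± 0.0618 (SD, n = 3) in 12-somite embryos and 0.850 ± 0.0144 (n = 3) in protruding-mouth larvae. From 5' read ends only its lowest score was 0.509. It was the only one of 5967 unlisted positions with at least 0.75 in all 6 libraries, and the cause was not tested.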

How the results depend on the processing

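The count of called sites was 0 and stayed 0 under 18 of 21 alternatives. It was 1 when all 14 libraries were fitted with barcode (5.8S-Um14, an alternative chosen after seeing the data), and ranged from 0 to 1 when a library was left out, with 18S-Um354 called without library 2 of either stage. Without the replicate block it was 0, with 4 sites at an unadjusted p under 0.05 in place of 11. With the block, leaving out a library also removes its partner from the difference, so either library of a pair gave the same result. The fit without a coverage minimum repeated the main fit, because every site met the minimum. Asking for a difference of at least 0.1 could only keep a count of 0. These runs were therefore no separate checks of the count. Of 32 named sites, 24 kept their direction under every alternative run. Several alternatives could not turn a direction. Dropping the block, fitting all 14 libraries, or changing the coverage minimum or the variance model left the difference itself unchanged. From 5' read ends, with and without the block, 28S-Am3697 turned to -0.0103, 28S-Gm1303 to 0.0160, 18S-Um354 to 0.0428, 28S-Gm4469 to 0.0148, 28S-Am389 to 0.107 and 28S-Am391 to 0.155. From 3' read ends, also chosen after seeing the data, 28S-Um3904 turned to -0.0178 and 28S-Gm3923 to -0.0363. With the authors' barcode correction 28S-Am3697 was -0.0533, on the logit scale 28S-Gm4469 was 0.00330, and with 2 unweighted flanks 28S-Am391 was 0.0271. Leaving out libraries gave -0.0783 to 0.101 at 28S-Gm3923, -0.0456 to 0.00484 at 28S-Gm4469 and -0.01004 to 0.00245 at 28S-Am391. The cause of these reversals was not tested. With 3 pairs, the interval of the difference reached beyond 0.1 at 29 sites, and counts of 5' ends left out 5 sites.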
